A study of Homo sapiens with 8 samples.

Results

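TXNIP, 4 other alpha-arrestins and MLXIP were followed through RNA sequencing of A549, an established line from a human lung adenocarcinoma. The 6 genes (TXNIP, ARRDC1, ARRDC2, ARRDC3, ARRDC4 and MLXIP) were taken by symbol from the 60664 gene identifiers of the count table. TXNIP was chosen by its counts, which were far higher in either single treatment than in untreated cells, and the others because they belong to its family or, in the case of MLXIP, encode a transcription factor of TXNIP. The 8 libraries fall into 4 groups of 2, namely no treatment, IFN-γ alone, the small molecule AX-0085 alone, and the combination of the 2 agents. The dose of IFN-γ was 20 ng/mL in the study (20 ng, without a volume, in the labels) and that of AX-0085 was 0.5 μM, and AX-0085 followed 24 h after IFN-γ for a further 24 h. No vehicle is named for the untreated cells, and all groups are the same line.

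Alpha-arrestins are adaptor proteins that bring ubiquitin ligases of the NEDD4 family to membrane proteins, which are then taken up from the cell surface. TXNIP is the best studied of them in human cells. It binds thioredoxin, a protein that reduces disulfides, and it lowers glucose uptake by promoting the removal of glucose transporters from the surface. ARRDC4 is its close relative and acts on glucose uptake as well. Transcription of both genes is driven by MondoA, the protein encoded by MLXIP, which pairs with MLX and responds to phosphorylated glucose. ChREBP, encoded by MLXIPL, is the sister factor of MondoA and binds the same kind of element, in which a pair of E-box-like hexamers is separated by a spacer.

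The 250 bases before the start sites of TXNIP and ARRDC4 are shown because these genes had the largest changes among the members and share a described regulator. They are RefSeq promoter entries of GRCh38.p14, written 5′ to 3′ on the gene's strand, from chr1:145996580-145996829 (minus strand) and chr15:97960453-97960702 (plus strand). Capitals mark the hexamers CACGAG and CACGTG and the pentamer CCAAT, or ATTGG where CCAAT lies on the other strand.
TXNIP: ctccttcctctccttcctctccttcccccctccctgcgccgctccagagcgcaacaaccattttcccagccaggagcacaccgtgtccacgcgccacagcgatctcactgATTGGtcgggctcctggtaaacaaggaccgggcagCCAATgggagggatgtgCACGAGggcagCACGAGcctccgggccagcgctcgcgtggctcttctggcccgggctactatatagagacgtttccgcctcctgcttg
ARRDC4: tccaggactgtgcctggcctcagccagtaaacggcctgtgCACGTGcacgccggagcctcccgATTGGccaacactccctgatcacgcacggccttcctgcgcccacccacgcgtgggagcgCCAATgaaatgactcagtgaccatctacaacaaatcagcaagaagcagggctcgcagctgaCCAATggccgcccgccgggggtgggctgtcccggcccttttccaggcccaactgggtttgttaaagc
Windows from 250 bases before to 50 bases after the start were searched on both strands, and all 6 genes had at least 1 entry. In TXNIP, 2 copies of CACGAG lay 5 bases apart, from -88 to -72 relative to the start (counted as position 0), and together formed the paired element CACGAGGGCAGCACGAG. The form with 2 hexamers CACGNG on the same strand and 5 bases between them was held by 20 of the 34796 promoter windows in the table (0.0575%), and among the 6 genes by TXNIP alone. Other paired forms, such as one with the second hexamer on the opposite strand, were not searched. ARRDC4 held 1 single E-box CACGTG, from -210 to -205, a hexamer found in 7.2% of all windows. CCAAT occurred 2 times in TXNIP and 3 times in ARRDC4, and in 34.6% of all windows at least 1 time. It also occurred 1 time in a window of each of ARRDC1, ARRDC2, ARRDC3 and MLXIP. The FOXO motif TGTTTAC was present in TXNIP, on the other strand from -124 to -118, and in a second start window of ARRDC3, against 3.42% of all windows. A match of letters is a description of the window and not evidence of binding, and its absence says only that these letters are not in the window.

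Total counts ranged from 20672828 to 29978251 per library, so a detection limit of 3 counts is equal to 0.100 to 0.145 CPM, for counting error only. CPM is the count relative to the TMM-scaled library size. CPM values were divided by the length of the merged exons in kilobases where genes are compared with one another. Changes between groups were tested with edgeR's quasi-likelihood (QL) test, with p-values adjusted over 15066 genes by the Benjamini-Hochberg procedure, and are given on the log2 scale with their standard error (SE). A gene is said below to have risen or fallen where the adjusted p is under 0.05, and to be called where the change is also over 2-fold, which are the thresholds of the study. No p is given for TXNIP, because its values chose it. An exact two-sided permutation test has a smallest p of 0.333 with 2 libraries in each group and was not used. The libraries of a group differed by more than counting noise (chi-square per degree of freedom between 9.34 and 30.7), and the study describes them as duplicate samples. Whether these were separate cultures is not given in the sources used here, and p-values then measure only the spread between these samples. Of 5 epithelial markers, 4 had at least 10 counts in every library, and EPCAM had 7 to 229. Of 7 alveolar type 2 markers, SFTPA1, SFTPB, NKX2-1 and NAPSA had at most 3 counts in every library, SFTPC had 0 to 12, LAMP3 6 to 90 and ABCA3 736 to 2267. All 5 epithelial markers were called lower with IFN-γ against untreated cells, where 17.2% of all genes were. Their median log2 change was -1.73 against -0.06 for all genes. With AX-0085 they went both ways, with EPCAM at 1.33 and CDH1 at 0.52 against KRT8 at -0.91 and KRT18 at -1.30, and a list median of 0.10. Their summed level, which KRT8 and KRT18 dominate, was 6425 to 6881 CPM in untreated, 3224 to 3397 in AX-0085, 2575 to 2882 in IFN-γ and 3607 to 3661 in combination libraries. The part of these markers in the results below was not tested. Of 5 markers of other cell types none had 10 counts in every library, CD3E had 0 in all, and their sum lay between 0.0402 CPM in an IFN-γ library and 0.774 CPM in an untreated one. In bulk RNA a level shared by all cells and a higher level in fewer cells cannot be told apart.

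TXNIP (ENSG00000265972) lies at chr1:145992435-145996579 (GRCh38, minus strand), and no other annotated gene overlaps it. In replicates 1 and 2 it had 1 and 4 counts in the untreated libraries, 229 and 253 in the AX-0085 libraries, 463 and 694 in the IFN-γ libraries and 651 and 510 in the combination libraries. The gene was close to the detection limit in untreated cells and well counted in all 6 treated libraries. Scaled, the level was 0.0980 ± 0.0918 CPM (SD, n = 2) in untreated cells, 9.32 ± 0.283 CPM (SD, n = 2) with AX-0085, 26.2 ± 2.44 CPM (SD, n = 2) with IFN-γ and 21.9 ± 1.49 CPM (SD, n = 2) with both. On this TMM scale the libraries of no pair of groups overlapped. From the summed counts, the level with IFN-γ was 289 times that of untreated cells, with an exact 95% interval from 124 to 893, and the level with AX-0085 was 102 times, with an interval from 43.5 to 316. These intervals cover counting error only. The fitted log2 fold changes were 8.09 (SE 0.24) with IFN-γ and 6.60 (SE 0.29) with AX-0085. They depend on the 5 counts of the untreated group. Without untreated replicate 1, the library with 1 count, they were 7.33 and 5.81, and without untreated replicate 2 they were 9.44 and 7.94.

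The treatments together gave no more TXNIP RNA than IFN-γ alone. Cells treated with both had 0.821 times the level of IFN-γ-treated cells (exact 95% counting interval from 0.757 to 0.892), a log2 difference of -0.27 (SE 0.10), and 2.33 times the level of AX-0085-treated cells (interval from 2.09 to 2.59), a log2 difference of 1.23 (SE 0.11). After TMM scaling, the libraries of the combination lay below both IFN-γ libraries and above both AX-0085 libraries. The difference from IFN-γ alone depends on the scaling and on single libraries. It was -0.15 (SE 0.11) with scaling by library size alone and -0.17 without IFN-γ replicate 2. Had the changes added on the log2 scale, cells treated with both would have been higher than untreated cells by 14.69, whereas the fitted difference was 7.82 (SE 0.25). The fitted interaction was -6.87 (SE 0.32), again resting on the untreated libraries, and was -6.08 without untreated replicate 1 and -8.21 without untreated replicate 2.

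**Figure D1:**
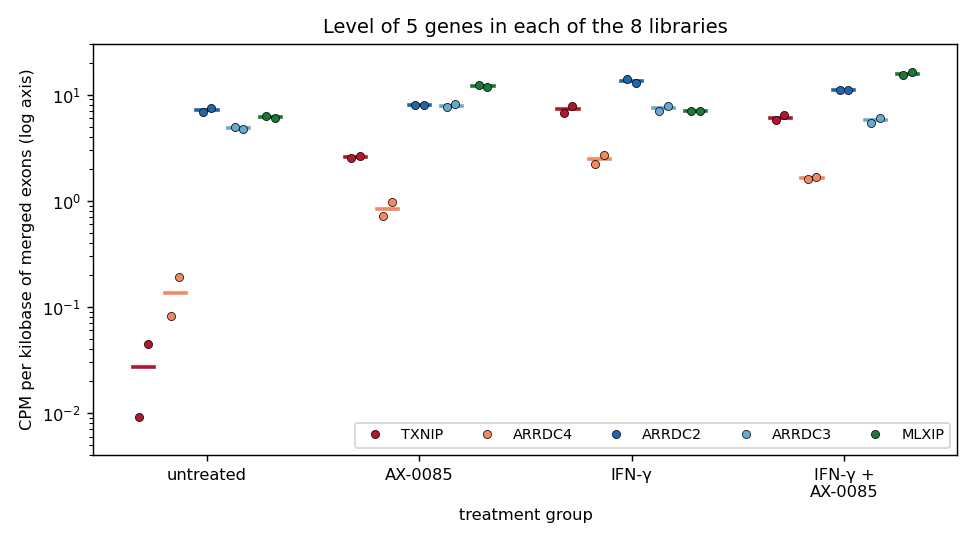
Level of TXNIP, ARRDC4, ARRDC2, ARRDC3 and MLXIP in CPM per kilobase of merged exons on a log axis, for the 2 libraries of each treatment group (points) with their mean (bars). TXNIP is at 0.0272 CPM per kilobase in untreated cells and at 7.26 with IFN-γ, ARRDC4 is at 0.136 and 2.45, and the other genes stay between 4.76 and 16.2 in every library.

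ARRDC4 (ENSG00000140450, plus strand of chromosome 15, 97960703 to 97973833) had the same order of groups as TXNIP at a lower level. It had 10 and 19 counts in the untreated libraries, 73 and 104 in the AX-0085 libraries, 171 and 271 in the IFN-γ libraries and 203 and 150 in the combination libraries. In CPM these were 0.552 ± 0.313 (SD, n = 2), 3.41 ± 0.712 (SD, n = 2), 9.96 ± 1.32 (SD, n = 2) and 6.62 ± 0.178 (SD, n = 2), and no 2 groups overlapped. IFN-γ raised ARRDC4 18.7-fold, a log2 change of 4.22 (SE 0.26, edgeR QL adjusted p = 9.53e-09), a call made for 10.3% of all genes in this direction. AX-0085 alone raised it 6.39-fold, a log2 change of 2.68 (SE 0.30, edgeR QL adjusted p = 8.21e-06), where 6.41% of all genes were called higher. These changes depend on the untreated libraries. Without untreated replicate 1 they were 3.73 and 2.15, and without untreated replicate 2 they were 4.91 and 3.35.

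In the combination ARRDC4 fell by 0.60 relative to IFN-γ alone (log2 scale, SE 0.17, edgeR QL adjusted p = 0.00691), which is under the 2-fold threshold and did not pass without IFN-γ replicate 2 (-0.46, edgeR QL adjusted p = 0.0758). It was 12.3-fold above untreated cells (edgeR QL adjusted p = 1.43e-07). Compared with AX-0085 alone it rose by 0.95 (SE 0.19, edgeR QL adjusted p = 0.00214). The interaction was -3.28 (SE 0.35, edgeR QL adjusted p = 6.00e-06), so the effect of AX-0085 differed between cells with and without IFN-γ. An interaction of this sign was called for 6.46% of all genes. Leaving out single libraries gave values from -3.95 to -2.76.

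TXNIP and ARRDC4 also differed from each other. Per kilobase, TXNIP stood at 0.113 and 0.237 times the ARRDC4 level in the 2 untreated libraries and at between 2.74 and 3.83 times in the 6 treated ones. ARRDC4 was thus the more abundant of these transcripts only in untreated cells, where both were low. In the 3 treated groups the ratio stayed within a narrow range, with 3.54 and 2.74 for AX-0085, 3.05 and 2.89 for IFN-γ, and 3.61 and 3.83 for both.

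MLXIP (ENSG00000175727, plus strand of chromosome 12, 122078756 to 122147344) moved in another way. It had 2621 and 2066 counts in the untreated libraries, 4259 and 4376 in the AX-0085 libraries, 1858 and 2420 in the IFN-γ libraries and 6679 and 4994 in the combination libraries. Normalized, the levels were 85.4 ± 1.82 CPM (SD, n = 2), 167 ± 3.50 CPM (SD, n = 2), 97.7 ± 0.5997 CPM (SD, n = 2) and 219 ± 7.73 CPM (SD, n = 2). The groups with AX-0085 were thus both above the groups without it. With IFN-γ MLXIP rose 1.14-fold, a log2 change of 0.19 (SE 0.06, edgeR QL adjusted p = 0.00773), which did not pass with scaling by library size alone (0.08, edgeR QL adjusted p = 0.296). With AX-0085 it rose by 0.97 (SE 0.06, edgeR QL adjusted p = 1.68e-08), just under 2-fold. In the combination it rose by 1.16 relative to IFN-γ alone (SE 0.06, edgeR QL adjusted p = 1.08e-09), and was called, where 16.5% of all genes were called higher. Both treatments together raised it 2.56-fold over untreated cells (edgeR QL adjusted p = 6.40e-10, against 7.51% of all genes called higher). Its interaction was 0.20 (SE 0.08, edgeR QL adjusted p = 0.0499), at the edge of the threshold, and did not pass in 12 of 14 alternatives, with an adjusted p up to 0.228 without replicate 2 of the combination and of 0.21 with DESeq2.

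ARRDC3 (ENSG00000113369, minus strand of chromosome 5, 91368631 to 91383317) encodes an adaptor for the β2-adrenergic receptor and integrin β4, and 2.91% of its exon bases are shared with the exons of the antisense gene ARRDC3-AS1. It had 740 and 582 counts in the untreated libraries, 949 and 1078 in the AX-0085 libraries, 668 and 968 in the IFN-γ libraries and 839 and 669 in the combination libraries. These correspond to 24.1 ± 0.552 CPM (SD, n = 2), 39.2 ± 1.96 CPM (SD, n = 2), 37.1 ± 2.57 CPM (SD, n = 2) and 28.5 ± 2.29 CPM (SD, n = 2). The libraries of the AX-0085 and IFN-γ groups overlapped, and both groups were higher than the groups with neither or both treatments. ARRDC3 rose 1.63-fold with AX-0085 (edgeR QL adjusted p = 1.72e-05) and 1.54-fold with IFN-γ (edgeR QL adjusted p = 2.77e-05). In the combination it fell by 0.39 relative to IFN-γ alone (SE 0.09, edgeR QL adjusted p = 0.00144), and cells with both were 1.18-fold above untreated cells (edgeR QL adjusted p = 0.0348). This last change did not pass with DESeq2 (adjusted p = 0.0614), without untreated replicate 2 (edgeR QL adjusted p = 0.122) or without replicate 2 of the combination (edgeR QL adjusted p = 0.274). The interaction was -1.09 (SE 0.12, edgeR QL adjusted p = 9.43e-06), and it was -0.97, no longer 2-fold, with scaling by library size alone.

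ARRDC2 (ENSG00000105643, plus strand of chromosome 19, 18001132 to 18014102) shares 9.53% of its exon bases with a gene on the other strand that had 0 counts. Its counts were 959 and 854 in the untreated libraries, 932 and 980 in the AX-0085 libraries, 1230 and 1476 in the IFN-γ libraries and 1605 and 1143 in the combination libraries. Normalized, they were 33.3 ± 2.16 CPM (SD, n = 2), 37.0 ± 0.170 CPM (SD, n = 2), 62.1 ± 3.98 CPM (SD, n = 2) and 51.4 ± 0.0431 CPM (SD, n = 2). The groups with IFN-γ were above those without. ARRDC2 rose 1.87-fold with IFN-γ, a log2 change of 0.90 (SE 0.08, edgeR QL adjusted p = 2.52e-07), and fell by 0.27 in the combination relative to IFN-γ alone (SE 0.08, edgeR QL adjusted p = 0.00611), a fall that did not pass with scaling by library size alone (-0.15, edgeR QL adjusted p = 0.0999). With AX-0085 alone the log2 change was 0.16 (SE 0.08, edgeR QL adjusted p = 0.112), the only test of ARRDC2 to ARRDC4 and MLXIP in the 6 comparisons that did not pass. Its interaction was -0.43 (SE 0.11, edgeR QL adjusted p = 0.00530).

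ARRDC1 (ENSG00000197070, plus strand of chromosome 9, 137605685 to 137615360), which takes part in the budding of vesicles from the cell surface, had 1 count in 1 untreated library and 0 in the other 7. It was not tested. Its level is not known from this table, in which the broadly used genes PRDX2, PRDX6, SRXN1 and GLRX are also listed at 0 in all 8 libraries and NFYA at 1 count in 1 library. A noncoding gene on the same strand and an antisense gene together span 98.4% of its exon bases, with exons of their own over 5.75%. Whether this overlap bears on the missing counts was not tested. ARRDC5, the alpha-arrestin not among the members, had at most 3 counts in a library.

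Of the 4 members tested, all 4 rose with IFN-γ and 0 fell, where 32.1% of all genes rose and 36% fell at the adjusted p alone. ARRDC4 was called higher, and 0 were called lower, against 10.3% and 17.2% of all genes. With AX-0085 alone 3 rose and 0 fell, against 26.7% and 26.6% of all genes, and ARRDC4 was again the 1 called, where 6.41% of all genes were called higher and 5.62% lower. In the combination relative to IFN-γ alone MLXIP rose and the 3 arrestins fell, against 33.7% and 32.8% of all genes, and MLXIP was the 1 called, where 16.5% were called higher and 8.28% lower. Relative to AX-0085 alone 3 rose and 1, ARRDC3, fell, against 17.3% and 17.4% of all genes. In that comparison edgeR and DESeq2 called 0 of the 4, although all 4 had an unadjusted p under 0.05, and 1.79% of all genes were called higher and 1.73% lower. Relative to untreated cells all 4 rose in the combination, against 28.1% of all genes that rose and 28.8% that fell, and ARRDC4 and MLXIP were called, where 7.51% were called higher and 7.23% lower. The interaction passed the adjusted p with a positive sign in MLXIP and a negative sign in the 3 arrestins, against 26.7% and 23.6% of all genes. It was called negative for ARRDC3 and ARRDC4, where 12.1% of all genes were called positive and 6.46% negative. These comparisons share libraries and are not independent of each other.

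**Figure D2:**
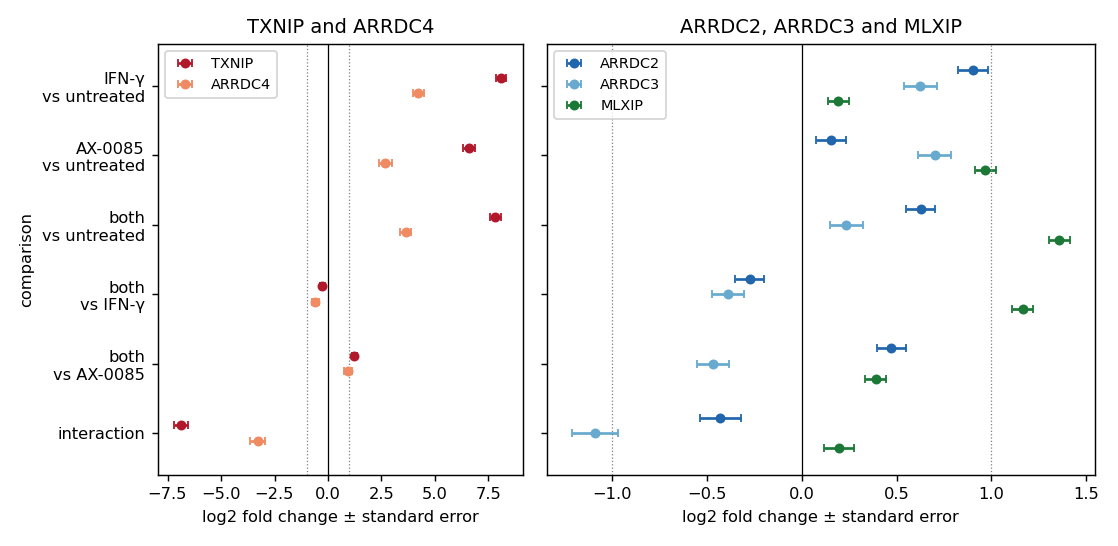
Log2 fold change with its standard error for each of the 6 comparisons, for TXNIP and ARRDC4 (left) and for ARRDC2, ARRDC3 and MLXIP (right, a narrower scale), with dotted lines at 2-fold. TXNIP and ARRDC4 are far to the right in all 3 comparisons with untreated cells. When AX-0085 is added to IFN-γ they are at -0.27 and -0.60, and MLXIP is at 1.16.

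Per kilobase, the order of the members changed with treatment. In untreated cells ARRDC2 was highest at 7.17 CPM per kilobase, followed by MLXIP at 6.16, ARRDC3 at 4.83, ARRDC4 at 0.136 and TXNIP at 0.0272, with no overlap between neighbours. With AX-0085 MLXIP came first at 12.1, ARRDC2 at 7.98 and ARRDC3 at 7.86 overlapped, and TXNIP at 2.59 stood above ARRDC4 at 0.840. With IFN-γ ARRDC2 led at 13.4, while ARRDC3 at 7.44, TXNIP at 7.26 and MLXIP at 7.05 followed close together, each overlapping its neighbour in this order. With both, MLXIP at 15.8 and ARRDC2 at 11.1 were followed by TXNIP at 6.07 and ARRDC3 at 5.71, which overlapped. With the longest transcript in place of merged exons, MLXIP stood first in untreated cells at 10.2 against 8.87 for ARRDC2. With IFN-γ it then stood second at 11.65, above TXNIP at 9.01 and ARRDC3 at 8.75, so its place in the order depends on the length used.

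The genes nearest to TXNIP in pattern were sought among the other 15065 tested genes, by the root mean square difference of group mean log2 CPM over the 4 groups, each gene centred on its own mean. The 5 nearest were the noncoding gene ENSG00000286230 at 1.42, PLA1A at 1.45, FUT1 at 1.57, the pseudogene ALMS1P1 at 1.62 and the antisense RNA HYI-AS1 at 1.63, where the median gene was at 3.45. Of these, FUT1, a fucosyltransferase, was the best counted, with 8 and 4 counts in the untreated libraries, 49 and 46 in the AX-0085 libraries, 120 and 143 in the IFN-γ libraries and 157 and 105 in the combination libraries. The other 4 had at most 5 counts in any untreated library and at most 62 in any library, so their group means rest on few counts. ARRDC4 ranked 10th of the 15065 genes in nearness at 1.83, ahead of MLXIP at rank 1355 (3.11), ARRDC2 at rank 1622 (3.14) and ARRDC3 at rank 2481 (3.21). As TXNIP was chosen for this pattern, the distances are a description. They are not scaled for the size of a gene's change, so a gene with small changes lies far whatever its order of groups. Unlike TXNIP, PLA1A, ALMS1P1 and HYI-AS1 were highest with both treatments, at 1.47, 2.52 and 1.35 after centring.

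**Figure D3:**
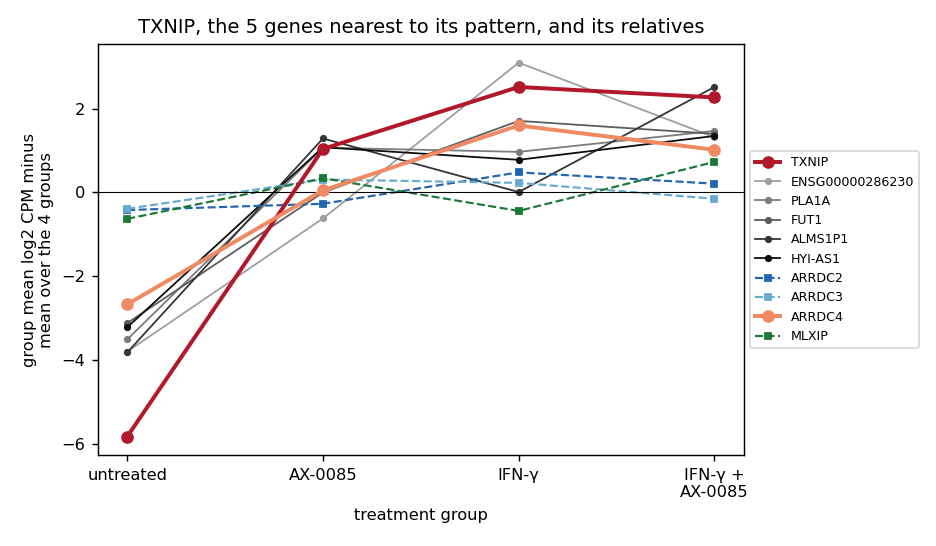
Group mean log2 CPM of each gene after subtraction of its mean over the 4 groups, for TXNIP, ARRDC4, the 5 genes nearest to TXNIP (grey to black) and the other measured members (dashed). TXNIP starts at -5.83 in untreated cells, lower than any other gene drawn, and is at 1.04 with AX-0085, 2.52 with IFN-γ and 2.27 with both.

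The partners and regulators of these proteins were then examined. MLX, the obligate partner of MondoA, had 61.7 and 64.3 CPM in untreated cells and had log2 changes of 0.20 with IFN-γ (SE 0.07, edgeR QL adjusted p = 0.0319), of -0.25 with AX-0085 (SE 0.08, edgeR QL adjusted p = 0.0121) and of -0.47 in the combination relative to IFN-γ alone (edgeR QL adjusted p = 0.000116). MLXIPL was low, at 40 and 46 counts in the untreated libraries, 56 and 64 in the AX-0085 libraries, 23 and 24 in the IFN-γ libraries and 97 and 71 in the combination libraries. It was lowest with IFN-γ, although its change of -0.55 there did not pass the test (SE 0.26, edgeR QL adjusted p = 0.0798). With AX-0085 alone MLXIPL rose by 0.56 (SE 0.22, edgeR QL adjusted p = 0.0470). In the combination it rose by 1.54 relative to IFN-γ alone (SE 0.23, edgeR QL adjusted p = 6.75e-05), and was called. Relative to untreated cells it rose by 0.99 in the combination (SE 0.21, edgeR QL adjusted p = 0.00117). Of 12 listed genes of the MLX, MYC and MAX network other than MLXIP, 11 were tested, and with IFN-γ 3 were called higher and 1 lower (10.3% and 17.2% of all genes), with a median log2 change of 0.53 against -0.06 for all genes. MXD1, a MAX-binding repressor, rose by 3.22 (SE 0.10, edgeR QL adjusted p = 1.11e-11) and fell by 3.64 in the combination relative to IFN-γ alone (edgeR QL adjusted p = 8.12e-12). MXD3, of the same family, had a change of -3.99 with IFN-γ and of 2.26 in the combination relative to IFN-γ alone. With AX-0085 alone 1 network gene was called higher, MXD4 at 1.30, and 1 lower, MXD3 at -1.13, where 6.41% and 5.62% of all genes were. In the combination relative to IFN-γ alone 3 were called higher and 2 lower (16.5% and 8.28% of all genes), with a median of -0.47 against 0.03 for all genes. Whether any of these genes bears on TXNIP was not tested.

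Among 8 relatives of the arrestin fold, 5 were tested (2 β-arrestins and 3 VPS26 subunits of retromer and related complexes). ARRB1, β-arrestin 1, which uncouples G-protein-coupled receptors, was lowest with IFN-γ. It had 375 and 278 counts in the untreated libraries, 1230 and 1150 in the AX-0085 libraries, 9 and 15 in the IFN-γ libraries and 1231 and 883 in the combination libraries. The log2 change was -4.43 with IFN-γ (SE 0.18, edgeR QL adjusted p = 1.72e-10), 1.96 with AX-0085 (edgeR QL adjusted p = 2.59e-09) and 6.16 in the combination relative to IFN-γ alone (edgeR QL adjusted p = 3.55e-12). It was the 1 relative called with either single treatment, lower with IFN-γ (17.2% of all genes) and higher with AX-0085 (6.41%). In the combination relative to IFN-γ alone 3 of the 5 were called higher and 0 lower (16.5% and 8.28% of all genes), with 0 lower in DESeq2 and 4 of 5 at an unadjusted p under 0.05, ARRB2 among those higher at 1.39.

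TXN, the thioredoxin that TXNIP binds, was abundant, at 751 and 727 CPM in untreated cells, and lower in each treated group. Its log2 change was -0.54 with IFN-γ (SE 0.07, edgeR QL adjusted p = 1.93e-05), -0.30 with AX-0085 (edgeR QL adjusted p = 0.00352) and -0.89 with both (edgeR QL adjusted p = 3.75e-07). TXNRD1, the reductase that recycles thioredoxin, rose by 1.34 with IFN-γ (edgeR QL adjusted p = 2.54e-09) and fell by 1.19 in the combination relative to IFN-γ alone. It was the 1 gene of 11 tested in the thioredoxin system, of 15 listed, that was called in these 2 comparisons, where 10.3% of all genes were called higher with IFN-γ and 8.28% lower in the combination. The 4 genes not tested were PRDX2, PRDX6, SRXN1 and GLRX, listed at 0. With AX-0085 alone edgeR and DESeq2 called 0 of the 11 (6.41% of all genes higher and 5.62% lower), 8 had an unadjusted p under 0.05, and the median was -0.02 against 0.01 for all genes.

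ITCH, a ubiquitin ligase that targets TXNIP for degradation, had a log2 change of 0.29 with IFN-γ (edgeR QL adjusted p = 0.000762) and of -0.11 with AX-0085 (edgeR QL adjusted p = 0.135). Of the 11 NEDD4 family ligases and adaptors, all tested, edgeR and DESeq2 called 0 with IFN-γ and 0 with AX-0085, with 9 and 6 at an unadjusted p under 0.05. Of all genes 10.3% were called higher and 17.2% lower with IFN-γ, and 6.41% and 5.62% with AX-0085. NEDD4 itself was the 1 called in the combination relative to IFN-γ alone, at -1.82 (SE 0.07, edgeR QL adjusted p = 1.78e-10), where 8.28% of all genes were called lower.

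Of 16 glucose transporters and hexokinases 10 were tested, with 2 called higher and 3 lower with IFN-γ (10.3% and 17.2% of all genes). With AX-0085 0 were called higher and 2 lower (6.41% and 5.62% of all genes), with 0 higher in DESeq2 and 8 of 10 at an unadjusted p under 0.05 in edgeR. SLC2A1, the GLUT1 transporter whose removal from the surface TXNIP promotes, rose by 0.88 with IFN-γ (SE 0.06, edgeR QL adjusted p = 3.49e-08), and its change with AX-0085 was 0.10 (edgeR QL adjusted p = 0.199). HK2, a hexokinase that makes the phosphorylated glucose MondoA responds to, rose by 3.62 with IFN-γ (SE 0.12, edgeR QL adjusted p = 2.67e-11) and fell by 4.10 in the combination relative to IFN-γ alone (edgeR QL adjusted p = 1.98e-11). In the combination HK2 stood at 3.42 and 4.495 CPM, below its 5.03 and 5.91 CPM in untreated cells. Whether HK2 bears on TXNIP was not tested. SLC2A6 was called lower with IFN-γ at -1.39 and with AX-0085 at -1.64.

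Of 10 further described regulators of TXNIP (FOXO factors, NF-Y subunits, HSF1, AMPK catalytic subunits and the glucocorticoid receptor), 9 were tested and 1, FOXO4, was called in each of these comparisons, a gene named after its values were seen. Its log2 change was -1.37 with IFN-γ, 1.88 with AX-0085 and 2.48 in the combination relative to IFN-γ alone, directions in which 17.2%, 6.41% and 16.5% of all genes were called. DESeq2 called 1 higher and 1 lower with IFN-γ. The median over the 9 was 0.47 with IFN-γ, 0.09 with AX-0085 and -0.26 in the combination relative to IFN-γ alone, against -0.06, 0.01 and 0.03 for all genes.

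**Figure D4:**
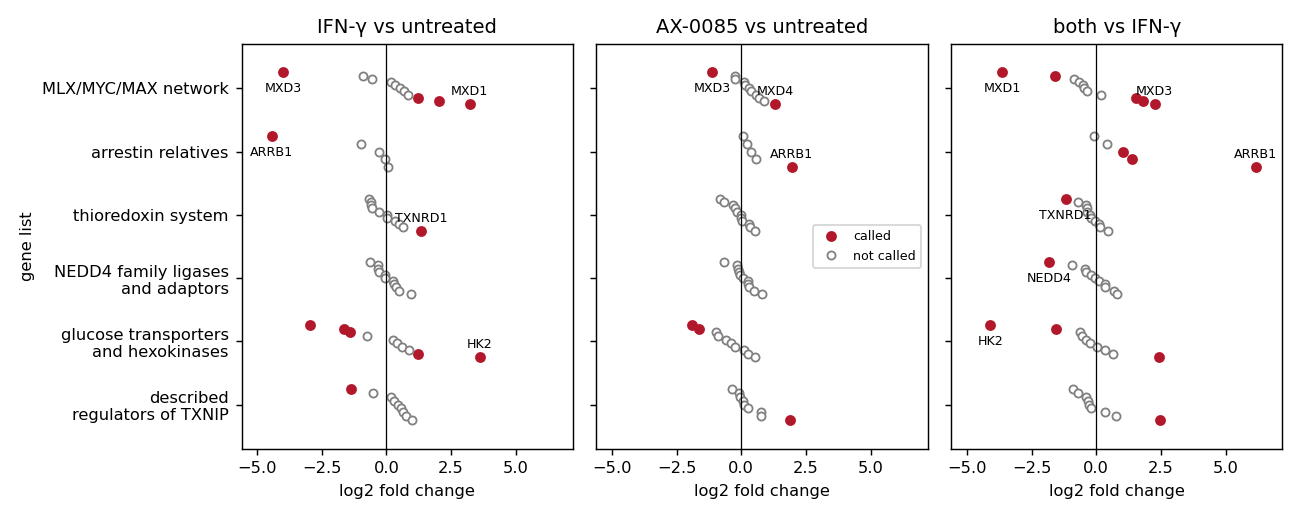
Log2 fold change of each tested gene of 6 lists in 3 comparisons, with called genes filled and the others open, and some of the named genes labelled. ARRB1 lies at -4.43 with IFN-γ and at 6.16 when AX-0085 is added, and MXD1 and HK2 lie on opposite sides in these comparisons.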

How the data were processed

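RNA of 8 A549 libraries was sequenced from stranded mRNA preparations. The authors trimmed reads with Trim Galore 0.6.7, aligned them to GRCh38 (STAR 2.7.9a), summarized them by gene (featureCounts) and deposited raw counts, per the labels and the study's methods. The annotation release and strand setting are not given in the sources used here, so reads of overlapping antisense genes may not be told apart.

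Low genes were removed by filterByExpr of edgeR 4.0.16 (R 4.3.3), libraries were scaled by TMM, and a quasi-likelihood model of the 4 groups was fitted to the 8 libraries. The standard error is the log2 change over the square root of the F statistic. Calls required an adjusted p under 0.05 and a change over 2-fold. Values of single libraries on the log2 scale used a prior count of 0.125. Lengths and overlaps came from GENCODE 44, in which 60463 identifiers matched.

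All members were named. From each pathway list, at most the 2 largest called changes per comparison were named among genes whose mean log2 CPM was 2 or more, with MLX, MLXIPL, TXN, ITCH and SLC2A1 whatever their values. FOXO4, at a mean of 1.92, was named outside this rule after its values were seen. The members and lists were chosen with earlier results of these data known. Alternatives were DESeq2 1.42.0, RLE or library size scaling, other filters, only the groups compared, adjusted p alone, the longest transcript, a replicate block and leaving out each library. On simulated counts for IFN-γ against untreated cells (15066 genes, 200 changed by a log2 of 2), edgeR called 100% of the changed genes. The changed genes were drawn from well-counted genes only, and every gene had the same dispersion. The simulation therefore does not cover counts as low as those of TXNIP and ARRDC4 in untreated cells. Protein sequences were not analysed here. One further motif searched in the promoter windows is not reported here.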

Additional observations from a re-analysis of the deposited data

Results flagged for a closer look

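The effect of AX-0085 differed between cells with and without IFN-γ in the 4 members tested, by the interaction term of the edgeR quasi-likelihood model across all genes. The difference, with minus without IFN-γ on the log2 scale, was -0.43 for ARRDC2 (adjusted p = 0.00530), from a change of 0.16 without IFN-γ to -0.27 with it. It was -1.09 for ARRDC3 (adjusted p = 9.43e-06), whose change turned from 0.70 to -0.39. It was -3.28 for ARRDC4 (adjusted p = 6.00e-06), with a change of 2.68 without IFN-γ and of -0.60 with it. It was 0.20 for MLXIP (adjusted p = 0.0499), which rose in both settings, by 0.97 and by 1.16. The MLXIP difference did not pass in 12 of 14 alternatives. An interaction passed the adjusted p with a positive sign in 26.7% and with a negative sign in 23.6% of all genes. The TXNIP difference of -6.87 is given without a test because its values chose it.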

How the results depend on the processing

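The 5 measured members in 6 comparisons gave 30 changes, and 439 values under the alternatives, of which 0 changed sign. Of these, 5 crossed the 2-fold threshold, 4 of them upward and 1 downward. Of the 24 changes tested, 19 kept their side of the adjusted p of 0.05 under every alternative, and the other 5 (the interaction and the IFN-γ change of MLXIP, ARRDC2 and ARRDC4 in the combination against IFN-γ, and ARRDC3 in the combination against untreated cells) crossed it as described with each gene. The cause was not tested. A fit without a library assumes that the lone library of its group varies like the others. With the adjusted p alone the members called numbered 4 with IFN-γ (1 with the fold threshold), 3 with AX-0085 (1), 4 for the combination against IFN-γ (1), 4 for the combination against AX-0085 (0), 4 for the combination against untreated cells (2) and 4 for the interaction (2). With scaling by library size alone the interaction was called for 1, and leaving out single libraries gave a count between 1 and 2 with IFN-γ (ARRDC2 at 1.01 without IFN-γ replicate 2), between 1 and 2 with AX-0085 (MLXIP at 1.00 without untreated replicate 1) and between 0 and 1 for the combination against AX-0085 (ARRDC4 at 1.19 without AX-0085 replicate 2 and 1.00 without replicate 1 of the combination). Scaling by library size alone moved the median of all genes with IFN-γ from -0.06 to -0.18, for the combination against IFN-γ from 0.03 to 0.16 and for the interaction from 0.05 to 0.17. Replicate 1 libraries carry the letter A in the column headers and replicate 2 libraries the letter B, without a stated meaning. Deviations of same-numbered libraries over all tested genes had correlations from -0.0738 to 0.0444. These values cannot exclude a shared culture or preparation set. The replicate block gave 1, 1, 1, 0, 2 and 2 calls in the order above. At 1 and 4 counts, depth limits the TXNIP fold against untreated cells.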
